A study of Mus musculus with 3 samples.

Results

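Transcripts of 6 cytotoxic granule genes (Gzmb, Gzma, Prf1, Ctsw, Nkg7 and Srgn) were measured in single Foxp3-reporter regulatory T cells (Tregs) sorted out of the epidermis, the dermis and the lymph node of mice. They were chosen by symbol from a table of 27998 genes, with earlier results of these data known, and each symbol matched 1 row in all 3 libraries. The study isolated Tregs from adult mice, taking the epidermal cells from back skin, and prepared 1 library per tissue. All animals carried the Foxp3-EGFP reporter (strain C.Cg-Foxp3tm2Tch/J), which marks cells that express Foxp3, the transcription factor that defines Tregs. GFP+ CD4+ CD3+ CD45+ cells were sorted in each tissue. Skin layers were split with thermolysin, dermis was further digested with collagenase and lymph node was mashed. Skin libraries were made with 10x 3′ v3 chemistry and the lymph node library with v2, so tissue, dissociation and kit cannot be told apart in any comparison with lymph node. In epidermis over dermis the kit is the same, but tissue and the further digestion of dermis cannot be told apart. How many animals each library pools, and their sex, is not stated in the sources used here.

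Cytotoxic lymphocytes kill by releasing granules onto a target cell. Perforin (Prf1) forms pores, and granzymes, serine proteases such as granzyme B (Gzmb) and granzyme A (Gzma), pass into the target cell and start its death. Serglycin (Srgn) is the proteoglycan core on which granzymes and perforin are packed, NKG7 (Nkg7) is a granule membrane protein needed for granule release, and cathepsin W (Ctsw) is a cysteine protease of killer lymphocytes. Activated mouse Tregs are known to make granzyme B and to use it against other lymphocytes.

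The Gzmb and Srgn start regions are shown because both genes were called higher in both skin libraries, and the Nkg7 one because its level divided the lymph node cells differently from Gzmb. Each run is RefSeq sequence (GRCm38.p6), 250 bases before to 50 bases after the RefSeq start, read 5′ to 3′ on the gene's strand. Capitals mark matches on either strand to the letters TGANTCA (AP-1), TGACGTCA (CRE), TGTGGT (RUNX), AGGTGTGA (T-box), TTCNNNGAA (STAT) and CAGGAAG (ETS). In these windows no match overlaps another.
Gzmb, chr14:56262285-56262584, minus strand: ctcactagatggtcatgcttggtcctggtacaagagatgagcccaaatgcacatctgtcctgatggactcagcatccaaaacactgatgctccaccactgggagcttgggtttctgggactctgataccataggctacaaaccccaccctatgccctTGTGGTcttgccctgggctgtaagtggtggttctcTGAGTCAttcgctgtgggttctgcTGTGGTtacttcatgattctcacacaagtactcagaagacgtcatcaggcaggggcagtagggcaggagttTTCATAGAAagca
Nkg7, chr7:43436888-43437187, plus strand: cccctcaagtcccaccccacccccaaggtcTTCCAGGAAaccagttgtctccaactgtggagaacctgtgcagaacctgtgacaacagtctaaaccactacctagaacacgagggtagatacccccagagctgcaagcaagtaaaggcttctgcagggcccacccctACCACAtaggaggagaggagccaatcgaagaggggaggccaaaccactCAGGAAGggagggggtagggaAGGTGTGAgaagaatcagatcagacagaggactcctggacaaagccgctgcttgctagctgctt
Srgn, chr10:62527396-62527695, minus strand: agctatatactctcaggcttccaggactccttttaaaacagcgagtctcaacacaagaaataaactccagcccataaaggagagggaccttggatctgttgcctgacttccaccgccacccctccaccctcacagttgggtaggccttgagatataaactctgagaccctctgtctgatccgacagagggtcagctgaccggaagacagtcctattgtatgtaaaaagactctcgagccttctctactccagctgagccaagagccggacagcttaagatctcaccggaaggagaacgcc

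The Gzmb window held 1 AP-1 match at -58 and RUNX matches at -93 and -34 relative to the RefSeq start, plus 1 STAT match after the start. GENCODE places the start of Gzmb 74 bases further downstream. The Nkg7 window held a T-box match at -14, an ETS match at -35, a RUNX match at -83 and a STAT match at -220. GENCODE places the start of Nkg7 at -65 relative to the RefSeq start, so by that annotation its T-box and ETS matches lie after the start. The upstream Srgn window held none of the 6 motifs, and the second RefSeq window of Srgn held 1 RUNX match. Of 32851 RefSeq windows of the same length, 7.81% held the AP-1 letters, 16.8% the RUNX letters, 8.30% the STAT letters, 13.3% the ETS letters, 1.28% the T-box letters and 1.79% the CRE letters. These are matches of letters, and no binding was measured. Windows were found for 5 of the 6 genes. Ctsw had no entry.

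In the GRCm38 annotation (GENCODE vM21) all 6 genes are protein coding. Gzmb lies at chr14:56258838-56262260 on the minus strand, in a cluster with 6 further granzyme genes. Gzma lies at chr13:113093825-113100981, Prf1 at chr10:61297833-61304680, Nkg7 at chr7:43437073-43438249 and Srgn at chr10:62493833-62527451. Ctsw, at chr19:5465043-5468507, overlaps Fibp on the opposite strand by 9 bases, and no other gene overlapped a member. No stretch of 25 bases in the last 500 bases of the Gzmb, Gzma, Prf1, Ctsw or Nkg7 transcripts occurred in a transcript of another gene. In Srgn 7.98% of such stretches did.

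The cell filter (at least 500 UMIs, at most 10% mitochondrial UMIs) kept 297 of 360 epidermal barcodes, 875 of 1077 dermal barcodes and 9400 of 9419 lymph node barcodes. A UMI is 1 counted transcript molecule. CPM is a gene's UMIs scaled to a library total of 1000000 UMIs. Median depth was 6671 UMIs per epidermal cell, 4726 per dermal cell and 3022 per lymph node cell, and total depth was 2205131, 4630059 and 32906839 UMIs in the same order. The skin libraries shared 43 cell barcodes, 34 of them deeper in epidermis and 9 deeper in dermis. The profiles of 1 shared barcode in epidermis and dermis had a median correlation of 0.629, against 0.438 for different barcodes of that set. Epidermal and lymph node libraries shared 0 barcodes, and dermal and lymph node libraries shared 1. In the kept cells those barcodes held 24.7% of epidermal UMIs and 5.29% of dermal UMIs, so results were also computed without them. All 8 Treg markers were detected in every library, with summed levels of 4713, 5795 and 3927 CPM in epidermis, dermis and lymph node. The share of cells with a Foxp3 UMI was 39.7%, 47.0% and 7.17% in the same order.

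With 1 library per tissue no test between tissues was possible. Intervals below are exact 95% intervals that cover counting error only, not variation between animals or between cells. They treat UMIs as independent, so 1 cell with many UMIs can move a value out of its interval. Intervals that do not overlap are therefore a description and no test. A gene was called higher or lower where its CPM ratio reached 2-fold with 50 CPM or more in the higher library. CPM values of different genes are 3′ tag counts and are not compared with each other.

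Gzmb was the member with the widest gap between skin and lymph node. Its level was 299 CPM in epidermis (277 to 323), 415 CPM in dermis (397 to 434) and 39.9 CPM in lymph node (37.8 to 42.1). Both skin libraries lay well above lymph node, and their intervals did not overlap each other, dermis being higher. The ratio was 7.50 (6.82 to 8.24) for epidermis over lymph node and 10.4 (9.70 to 11.2) for dermis over lymph node. In epidermis over dermis it was 0.721 (0.659 to 0.788), inside the 2-fold limits. Gzmb was concentrated in few cells. The single highest cell held 128 of the 660 epidermal Gzmb UMIs, and 5% of cells held 69.8% of them, against 50.9% in dermis. Leaving out the highest cell of each library gave 242 CPM in epidermis, 398 CPM in dermis and 38.9 CPM in lymph node. Among cells with a Foxp3 UMI the epidermal level was 168 CPM and the lymph node level 57.5 CPM, a ratio of 2.92, and in the same cells epidermis over dermis reached 0.375, a call of lower.

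Srgn, the packing proteoglycan, was at 1412 CPM in epidermis (1363 to 1463), 2242 CPM in dermis (2199 to 2286) and 629 CPM in lymph node (621 to 638). The order dermis, epidermis, lymph node was the one seen for Gzmb, and no intervals overlapped. Srgn was called higher in epidermis (2.24-fold, 2.16 to 2.33) and in dermis (3.56-fold, 3.48 to 3.65) against lymph node. Epidermis over dermis was 0.630. Under other scalings the epidermal ratio to lymph node left the call, at 1.61 with TMM, 1.74 with median-of-ratios and 1.95 with totals that leave out mitochondrial and ribosomal protein genes.

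Nkg7 followed another order. It stood at 151 CPM in epidermis (136 to 169), 81.0 CPM in dermis (73.0 to 89.6) and 53.3 CPM in lymph node (50.9 to 55.9). Epidermis was the highest, and the call was higher for epidermis over lymph node, at 2.84-fold (2.52 to 3.19). Dermis over lymph node, at 1.52, and epidermis over dermis, at 1.87, were not called. Without the barcodes found in both skin libraries, epidermis over dermis reached 2.09 and was called, as it did in Xist-only cells (2.34), in Y-linked cells (2.99) and with totals that leave out mitochondrial and ribosomal protein genes (2.03). Dermis over lymph node reached 2.15 and was called when cells above the 95th UMI percentile of each library were left out.

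Ctsw had the opposite order to Gzmb and Srgn in skin. Its level was 97.5 CPM in epidermis (84.9 to 111), 18.8 CPM in dermis (15.05 to 23.2) and 94.2 CPM in lymph node (90.9 to 97.5). Epidermis and lymph node could not be separated, with a ratio of 1.04 and an interval of 0.897 to 1.19 (0.743 with TMM scaling), and dermis lay below both. Ctsw was called lower in dermis than in lymph node, at a log2 ratio of -2.33, and higher in epidermis than in dermis, at 5.19-fold (4.03 to 6.74). Over 17 settings the ratio of dermis over lymph node stayed between 0.154 and 0.228. Over 18 settings that of epidermis over dermis stayed between 4.37 and 6.65. Among all genes of at least 10 CPM, 1.90% had a lower ratio than Ctsw in dermis over lymph node. In epidermis over dermis 99.0% had a lower ratio.

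The other killing genes were close to absent. Prf1 had 14 epidermal UMIs (6.35 CPM), 33 dermal UMIs (7.13 CPM) and 46 lymph node UMIs (1.40 CPM). Its ratios of 4.54 for epidermis and 5.10 for dermis over lymph node stayed under the 50 CPM needed for a call. No Gzma UMI was counted in either skin library, against 6 in 5 cells of the lymph node library. A count of 0, read as up to 3 counts, allows 1.36 CPM in epidermis and 0.648 CPM in dermis, and the exact 95% upper limits that are plotted are 1.67 and 0.797 CPM. All 4 limits are above the 0.182 CPM seen in lymph node, so no difference in Gzma was detectable at this depth.

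Leaving out the barcodes found in both skin libraries changed no call of Gzmb, Srgn or Ctsw. Gzmb was then 320 CPM in epidermis and 427 CPM in dermis, or 8.03-fold and 10.7-fold over lymph node. Srgn ratios to lymph node were 2.32 for epidermis and 3.601 for dermis. Ctsw was 102 CPM in epidermis and 18.7 CPM in dermis, a ratio of 5.47.

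**Figure D1:**
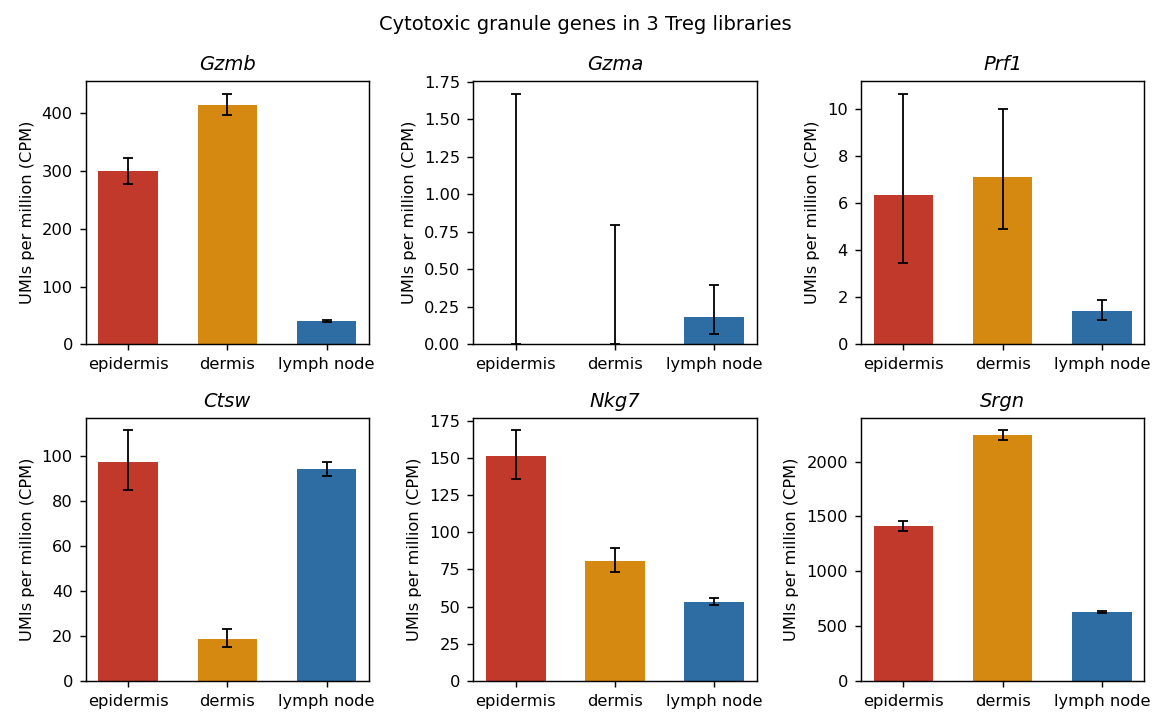
Levels of the 6 genes in CPM, 1 panel per gene, with bars for the epidermal, dermal and lymph node libraries and exact 95% Poisson intervals. Gzmb and Srgn are highest in dermis, Nkg7 in epidermis, and Ctsw is low in dermis alone, at 18.8 CPM.

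The members and the gene lists read below were chosen with earlier results of these data known, so counts over them are descriptions. Counted over the list, 3 of the 4 members that reached 50 CPM were called higher in epidermis over lymph node and 0 lower. Over all genes 18.6% were called higher and 3.42% lower. In dermis over lymph node 2 of 4 were called higher and 1 lower, against 26.0% and 9.55% of all genes. In epidermis over dermis 1 of 4 was called higher and 0 lower, against 2.71% and 4.54%. The median log2 ratio of the 4 members was 1.34, 1.22 and 0.22 in these comparisons, against 0.14, 0.15 and 0.01 over all genes at 50 CPM. With TMM scaling the all-gene split turned to 279 higher and 459 lower for epidermis over lymph node (569 and 105 with library totals) and to 535 and 765 for dermis over lymph node (832 and 306). For epidermis over dermis it was 58 and 171 (83 and 139). TMM shifted the all-gene median by -0.48, -0.37 and -0.11 on the log2 scale in the same order. Under TMM the calls against lymph node held for Gzmb in both skin libraries (5.38 and 8.03), Nkg7 in epidermis (2.04) and Srgn (2.75) and Ctsw (0.154) in dermis.

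**Figure D2:**
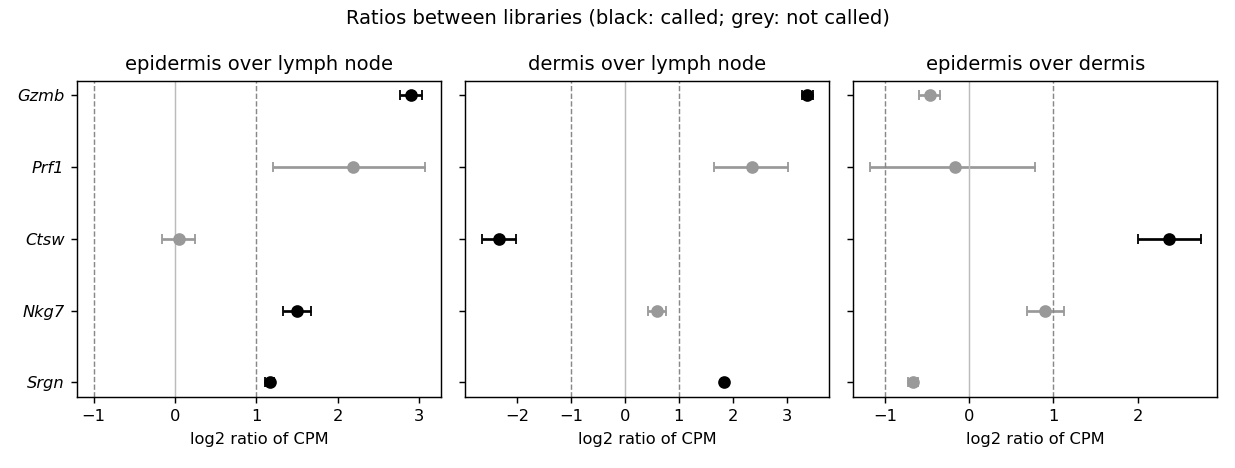
log2 ratios of CPM for 5 genes in 3 comparisons, with exact 95% intervals for counting error and dashed lines at the 2-fold limits. Ctsw lies at -2.33 in dermis over lymph node and at 2.38 in epidermis over dermis, on the other side of 0 from Gzmb in both.

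Shares of cells were compared after thinning each cell to 1500 UMIs, which left out 35 epidermal, 47 dermal and 92 lymph node cells. A Gzmb UMI was found in 15.3% of cells in epidermis (11.1 to 20.2%), in 25.1% in dermis (22.2 to 28.2%) and in 2.35% in lymph node (2.05 to 2.68%). Without thinning these shares were 25.6%, 38.3% and 3.87%. Genes of other cell types were also seen. The thinned share of cells with Krt14, a keratinocyte gene, was 0.382%, 0.242% and 0%, and with Cd79a, a B cell gene, 0%, 0.121% and 0.451% in the same order of libraries. Without thinning, any gene of the keratinocyte list (8 genes) was seen in 22.9%, 23.1% and 7.73% of cells, led by Sfn in skin, and any of the B cell list (5 genes) in 10.1%, 6.51% and 7.61%, led by Cd79b. In the resting Treg-like lymph node cluster described below, at a median of 2873 UMIs, 0.321% of cells had a Gzmb UMI without thinning. Ctsw was seen in 14.9% of cells in epidermis (10.8 to 19.8%), in 2.66% in dermis (1.67 to 3.995%) and in 12.6% in lymph node (11.9 to 13.3%). The corresponding thinned shares were 8.40%, 5.80% and 3.44% for Nkg7 and 69.1%, 88.8% and 49.4% for Srgn. Prf1 was seen in 1.91%, 0.845% and 0.247% of cells. The order of the 3 libraries was the same in shares as in CPM for Gzmb, Ctsw, Nkg7 and Srgn.

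**Figure D3:**
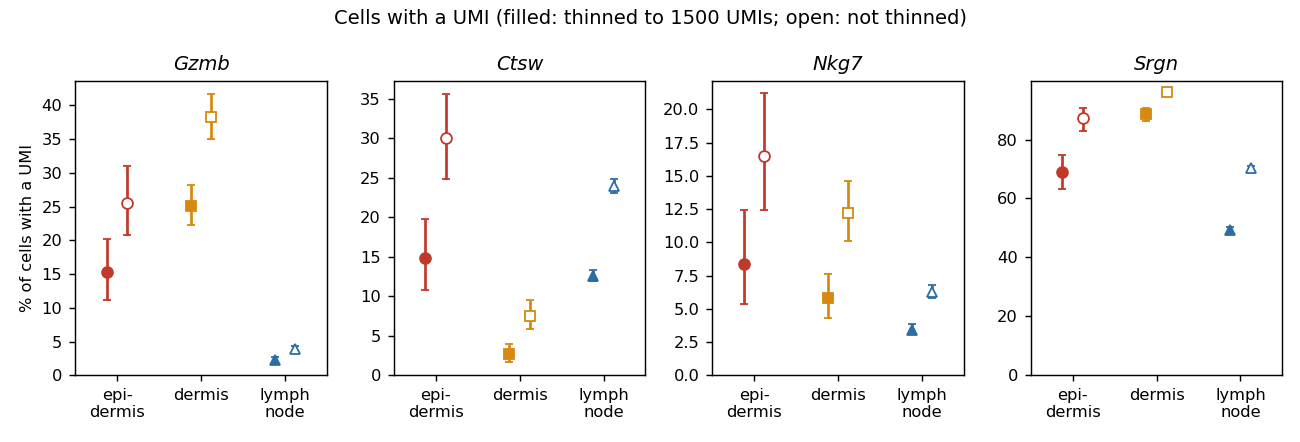
Percent of cells with a UMI of 4 genes by library, thinned to 1500 UMIs (filled) or not (open), with exact Clopper-Pearson intervals. Dermal cells are the highest for Gzmb and Srgn and the lowest for Ctsw.

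To see which cells carried the transcripts, cells were clustered within each library with all members and granule-list genes left out. Clusters were named only where at least 3 markers of a class were raised and at least 2 stood among the 10 leading genes, a rule set after the clusters were seen. Dermal cluster 7 met it for the immediate early list, which also holds the heat shock genes Hspa1a and Hspa1b. Those were its list genes among the 10 leading genes, so it is left unnamed. Clustering gave 5 epidermal, 9 dermal and 12 lymph node clusters, of which 25 held at least 20 cells.

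In lymph node, Gzmb was almost confined to a pair of clusters. The effector Treg-like cluster 6 (916 cells, led by S100a4, Ccr2, S100a6, Fgl2 and Klrg1 beside Gzmb) had 253 CPM (238 to 269) and held 998 of the 1313 Gzmb UMIs. The cycling-like cluster 11 (90 cells) had 246 CPM (214 to 283). Together they were 10.7% of cells and 91.5% of Gzmb UMIs, at 252 CPM. The other 10 clusters together had 3.94 CPM, and those of at least 20 cells lay between 1.09 CPM in the resting Treg-like cluster 1 and 6.95 CPM in cluster 8. Cluster 12, 15 cells led by B cell and MHC class II genes, had 192 CPM, or 55.3 CPM without its highest cell. The effector Treg-like lymph node cluster lay below the whole epidermal library, at 299 CPM (277 to 323). That library also includes its resting Treg-like clusters, so these values cover unlike sets of cells.

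Epidermal clusters also differed in Gzmb. Cluster 4 (51 cells, led by Alpk2, Lgals3 and Sgip1 beside Gzmb) had 775 CPM (693 to 866), or 472 CPM without its highest cell. The immediate early-like cluster 1 (86 cells, led by Atf3, Areg and Ifng) had 401 CPM, or 290 CPM without its highest cell, and the cycling-like cluster 2 had 229 CPM. The resting Treg-like clusters 3 and 5 had 35.2 and 23.5 CPM, or 21.1 and 4.07 CPM without the highest cell of each. Epidermal Gzmb was thus low in the resting Treg-like clusters, as it was in lymph node.

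In dermis every cluster held Gzmb. The lowest was cluster 5, at 206 CPM (166 to 252), and the highest cluster 3, at 701 CPM (647 to 759), a 3.41-fold range against 33.0-fold in epidermis and 233-fold in lymph node. Dermal cluster 3 (145 cells) was led by Ifng, Ms4a4b, Gimap4, Gimap6, Izumo1r and S1pr1, and dermal cluster 4 followed at 537 CPM. Cluster 1, led by Krt14, Fabp4, Sparcl1 and Acta2, genes of other skin cells, had 273 CPM. The part of such transcripts in that value was not tested. The smallest cluster, of 33 cells, had 259 CPM, or 112 CPM without its highest cell.

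Nkg7 did not follow Gzmb through the lymph node clusters. It was highest in cluster 9 (564 cells, led by Eno3, Lad1 and Srm beside Nkg7), at 204 CPM (188 to 221), and in cluster 8 (835 cells, with Pdcd1, Lag3, Tbc1d4 and Nrp1 among its leading genes), at 151 CPM (137 to 167). Gzmb was at 2.07 and 6.95 CPM in those clusters. The effector Treg-like cluster 6 had 62.2 CPM of Nkg7, and the resting Treg-like cluster 1 had 4.78 CPM. The cycling-like cluster 11 had 141 CPM, but 82.2 CPM without the single cell that held 50 of its UMIs. In epidermis Nkg7 was highest in cluster 4, at 258 CPM, the cluster with the most Gzmb, and all 17 UMIs of cluster 5 came from 1 cell. Dermal Nkg7 ran between 27.3 CPM in cluster 9 (2 UMIs in 1 cell) and 178 CPM in the cycling-like cluster 8, where 1 cell held 25 of 48 UMIs.

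Ctsw was spread more evenly. Lymph node clusters ranged between 32.6 CPM in the cycling-like cluster 11 and 145 CPM in cluster 4 (led by Rgs1, Lrrc32, Socs2 and Gpr83). The effector Treg-like cluster 6, where Gzmb was highest, had 63.7 CPM of Ctsw (56.0 to 72.1), against 84.4 CPM (76.3 to 93.3) in the resting Treg-like cluster 1. Epidermal clusters other than the cycling-like one lay between 112 and 124 CPM, so the epidermal Gzmb-low and Gzmb-high clusters held like levels of Ctsw. The cycling-like epidermal cluster had 45.9 CPM. All 9 dermal clusters were at or below 34.7 CPM, the value of cluster 3, and the interval of cluster 3 (23.4 to 49.5) overlapped that of the cycling-like epidermal cluster (30.5 to 66.3). In that epidermal cluster 1 cell held 12 of the 28 Ctsw UMIs, and without it the level was 28.2 CPM, below dermal cluster 3 (34.7 CPM, or 29.1 CPM without its own highest cell).

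Srgn was present in all clusters. In lymph node it was highest in the effector Treg-like cluster 6, at 1349 CPM (1313 to 1386), and in the immediate early-like cluster 10, at 1230 CPM (1179 to 1283), while cluster 4 had 291 CPM. Epidermal clusters ranged between 953 CPM in the resting Treg-like cluster 3 and 1961 CPM in the immediate early-like cluster 1. Dermal clusters ranged between 1034 CPM in cluster 1 and 2831 CPM in cluster 3, with cluster 7, led by the heat shock genes Hspa1a and Hspa1b, at 2828 CPM. Dermal cluster 5 had the highest summed level of the immediate early list, at 14312 CPM, and 1646 CPM of Srgn, while cluster 3 had 9281 CPM of that list. Cluster 7 had 13831 CPM of the list, and cluster 1, the lowest in Srgn, had 6538 CPM. An association of Srgn with the list over dermal clusters was not tested. The summed level of the immediate early list, Hspa1a and Hspa1b included, was 4362 CPM in epidermis, 10281 CPM in dermis and 506 CPM in lymph node. The part of this list in the tissue difference of Srgn was not tested.

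**Figure D4:**
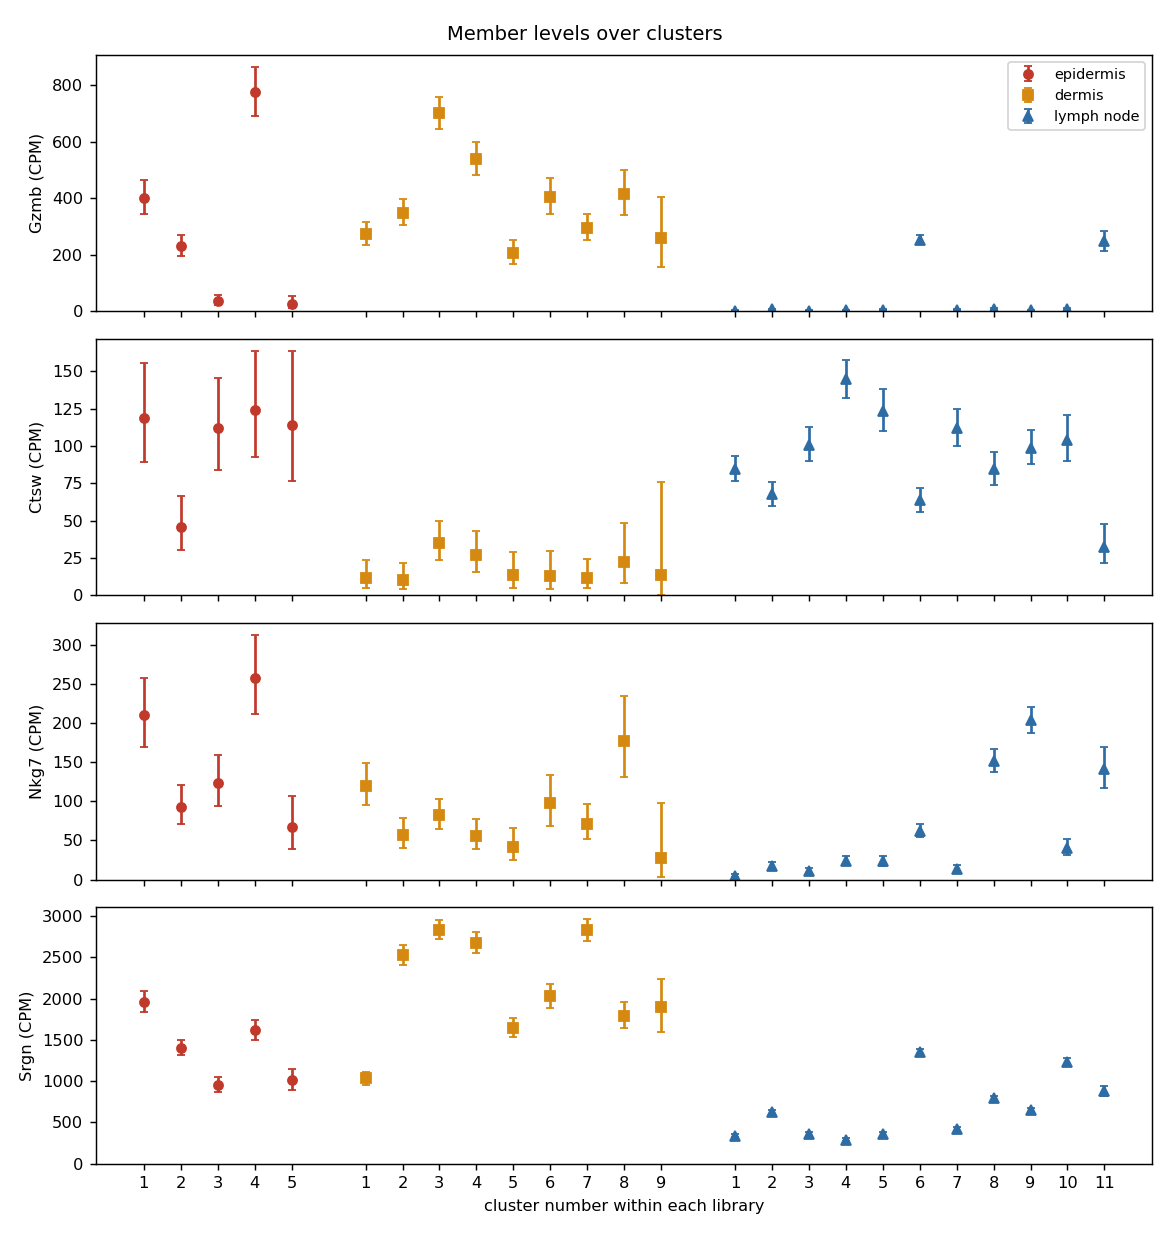
CPM of Gzmb, Ctsw, Nkg7 and Srgn in each cluster of at least 20 cells, with exact Poisson intervals, for epidermal (circles), dermal (squares) and lymph node (triangles) clusters. Lymph node Gzmb stands above 200 CPM in clusters 6 and 11 alone, whereas all dermal clusters are above 200 CPM.

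Over the 25 clusters, each centred on its library mean, the gene whose level was most like that of Gzmb was Klrg1, a lectin-like receptor of effector lymphocytes, with Pearson's r of 0.93 among 3129 genes. Lgmn, Anxa6, Gna15 and Lgals3 followed at 0.91, 0.91, 0.89 and 0.89. Within dermis alone, Klrg1 had r = -0.39 with Gzmb, against 0.99 in epidermis and lymph node. Srgn was most like Crem, at 0.91, then Sh2d2a, Rilpl2, Hif1a and Gadd45b, down to 0.85, and Crem had r = 0.93 within epidermis, 0.90 within dermis and 0.94 within lymph node. The likeness was weaker for Nkg7 (Syngr2 0.77, Cd74 0.75, Mif4gd 0.75, Timm17b and Tnfrsf9 0.74) and for Ctsw (Gpr83 0.62, Hibadh 0.60, Fau 0.59, Rgs10 0.58, Foxp1 0.55). Between members, Gzmb had r = 0.64 with Srgn, 0.47 with Nkg7 and -0.37 with Ctsw. In lymph node the value for Gzmb and Ctsw was -0.79, in dermis 0.83. Clusters of 1 library share that library and its depth, so these values are descriptions.

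Cells with and without a Gzmb UMI were then compared within each library, thinned to 1500 UMIs. Before thinning, cells with a Gzmb UMI had a median of 8433 UMIs in epidermis and 3296 in lymph node, against 7081.5 and 3033 in cells without, and the part of depth was not tested. In epidermis 40 cells with a Gzmb UMI had 333 CPM of Nkg7, against 69.1 CPM in 222 cells without (4.83-fold, 2.51 to 9.19). In lymph node 219 cells with a Gzmb UMI had 110 CPM of Nkg7, against 40.6 CPM in 9089 cells without (2.70-fold, 1.87 to 3.79). In dermis 208 cells with a Gzmb UMI had 67.3 CPM, against 81.7 CPM in 620 cells without, and the interval of 0.482 to 1.35 included equality. Srgn ratios were 1.10 in epidermis, 1.19 in dermis and 1.80 (1.62 to 2.005) in lymph node. Ctsw ratios were 0.740, 0.745 and 0.762 in the same order, and all 3 intervals included 1. Prf1 was seen together with Gzmb in 1 epidermal, 2 dermal and 2 lymph node cells. In the 23 lymph node cells with a Prf1 UMI, Gzmb was at 319 CPM, against 33.1 CPM in the 9285 without, on 11 Gzmb UMIs from those 2 cells. Of the 5 members other than Srgn, none was detected in 66.8% of the cells of epidermis, 68.8% of those of dermis and 82.3% of those of lymph node. Exactly 2 were detected in 14, 27 and 91 cells and 3 in 2, 0 and 1 cells in the same order.

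The genes with the highest and lowest ratios in Gzmb cells are given for each library, and whether they differ between tissues was not tested. In lymph node cells with a Gzmb UMI, the chemokine receptor Ccr10 was 18.2-fold higher (122 against 6.67 CPM), the suppressive mediator Fgl2 17.9-fold, Lgals3 12.8-fold, Ccr2 12.5-fold, Klrg1 11.98-fold and Ctla2a 10.4-fold, followed by S100a6 and S100a4. Satb1 (27.4 against 140 CPM), Gpr83, Ly6c1 and Bcl2 were the lowest. The summed effector Treg list was 3.06-fold higher and the resting Treg list had a ratio of 0.484. In epidermal cells with a Gzmb UMI, the chemokine gene Ccl4 (600 against 33.0 CPM, 18.2-fold) and Ifng (267 against 18.0 CPM, 14.8-fold) led, Ifng on 16 and 6 UMIs. Cln3, Trim30d, Sh3rf1, Atp2c1, Arid3a and Ccr3 followed on 9 UMIs or fewer each, and Akr1a1, Sod2, Ccr7 and Dynlrb1 were the lowest. The resting Treg list had a ratio of 0.305 and the effector Treg list 1.495. In dermal cells no ratio exceeded 2.40, that of Ccr7, with Fam177a, Ms4a6b and Rbpj next and Klf9, Pkn2, Metap2 and Jmjd1c the lowest, and the resting Treg list was at 1.25. The highest and lowest genes were picked by their ratios, out of 1824, 1441 and 1362 genes in epidermis, dermis and lymph node, so their sizes are descriptions.

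**Figure D5:**
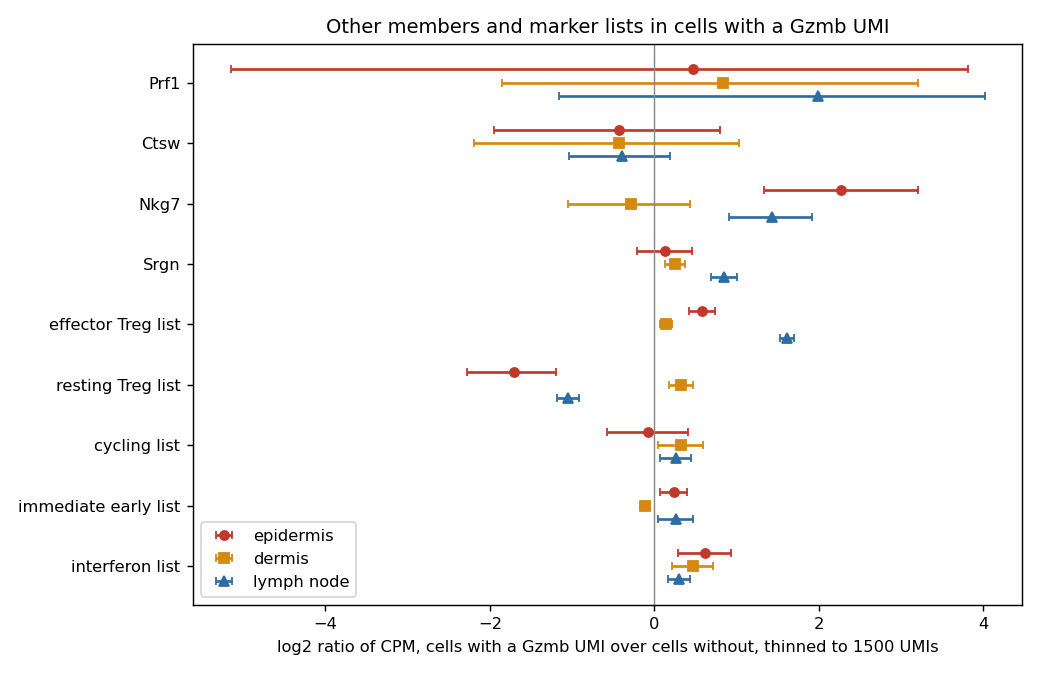
log2 ratio of CPM in cells with against cells without a Gzmb UMI, thinned to 1500 UMIs, for 4 members and 5 marker lists in epidermis (circles), dermis (squares) and lymph node (triangles), with exact 95% intervals. Nkg7 and the resting Treg list lie far from 0 in epidermis and lymph node and closer to 0 in dermis, where the resting list is at 1.25 on the linear scale.

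The other granzymes were scarce. Gzmc, a neighbour of Gzmb at -27.4 kb, had 23 epidermal UMIs (10.4 CPM), 97 dermal UMIs (21.0 CPM) and 144 lymph node UMIs (4.38 CPM), the same order of libraries as Gzmb. Of the 476 stretches of 25 bases at the end of its transcript, 6.72% also occur in Gzmb. In lymph node the effector Treg-like cluster held 60 of the 144 Gzmc UMIs, at 15.2 CPM. Gzmf had 2, 3 and 14 UMIs and Gzmm 1, 3 and 6 UMIs in epidermis, dermis and lymph node. Gzmk had 1 UMI, in lymph node, and Gzmd, Gzme, Gzmg and Gzmn had 0 in all 3 libraries. Since 46.4% of the Gzmd stretches and 55.9% of the Gzme stretches occur in other genes, reads from these copies could have gone uncounted.

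A list of 15 transcription factors tied to the cytotoxic programme was also read. Called higher were 6 of the 9 at 50 CPM in epidermis over lymph node and 6 of 8 in dermis over lymph node. None was called lower, and 18.6% and 26.0% of all genes were called higher. Prdm1 and Batf of this list also stand in the effector Treg list, so these counts are not particular to killer cells. Hopx, a homeodomain-only protein, was at 716 CPM in epidermis, 1004 CPM in dermis and 15.7 CPM in lymph node. The ratios of Id2, an inhibitor of E proteins, were 7.84 and 14.5 for epidermis and dermis over lymph node. Those of Prdm1, which encodes Blimp-1, were 7.48 and 9.37, and those of Irf4 4.30 and 6.69. Runx3, a driver of the CD8 killer programme, was at 84.3, 93.1 and 27.4 CPM and Runx1 at 74.4, 120 and 33.5 CPM in epidermis, dermis and lymph node. Tbx21 and Eomes, the T-box factors of killer cells, stayed at or below 5.90 CPM, and Zfp683 had 2 UMIs, both in lymph node. In epidermis over dermis 0 of 9 were called, against 2.71% of all genes called higher and 4.54% lower. The list's median log2 ratio at 50 CPM was 1.62 in epidermis over lymph node and 2.29 in dermis over lymph node, against the 0.14 and 0.15 of all genes, and both comparisons use the same lymph node library.

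Receptors split between a few high genes and a silent killer set. Klrg1 was at 111 CPM in epidermis, 233 CPM in dermis and 20.7 CPM in lymph node, and was called lower in epidermis than in dermis (0.478). Il18r1, the interleukin 18 receptor, was at 74.4, 75.6 and 24.5 CPM, and Il2rb and Il21r were not called in any comparison. The natural killer receptors Klrd1, Klrk1, Klrc1 and Klrc2 stayed at or below 2.38 CPM in all 3 libraries. In the receptor list 2 of 4 genes at 50 CPM were called higher in each comparison with lymph node, against 18.6% of all genes in epidermis and 26.0% in dermis. Its median log2 ratios were 0.76 in epidermis and 0.65 in dermis, against 0.14 and 0.15 over all genes.

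The granule machinery was called at shares that can be read against the 18.6% of all genes called higher in epidermis over lymph node and the 26.0% in dermis over lymph node. The median log2 ratio to lymph node was 0.08 in epidermis and 0.09 in dermis for lysosomal proteases and membrane genes, 0.17 and 0.45 for transport genes and -0.04 and 0.57 for inhibitors, against 0.14 and 0.15 over all genes. Of the lysosomal proteases and membrane genes, 1 of 9 at 50 CPM was called higher in epidermis over lymph node (Lamp2, 2.07-fold) and 2 of 10 in dermis over lymph node (Lamp2, 2.62-fold, and Lgmn, 2.49-fold). Igf2r, which sorts enzymes to lysosomes, was called lower in dermis than in lymph node (0.308) and higher in epidermis than in dermis (2.46-fold), the same pattern of calls as Ctsw. Lamp1, Ctsz, Ctsc and Calr were not called, at ratios to lymph node between 0.559 and 1.70 in both skin libraries. Cathepsin C, the enzyme that activates granzymes, was at 37.2 CPM in epidermis, 38.0 CPM in dermis and 55.3 CPM in lymph node. In the transport list 2 of 8 genes were called higher in each skin library over lymph node. These were Rab27a, which docks granules (2.11-fold in epidermis and 2.33-fold in dermis), and Stx11, a fusion protein (2.61-fold and 3.77-fold). Kif5b, Ap3b1, Stxbp2 and Vti1b were not called.

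Inhibitors were called in dermis over lymph node. Serpinb6a (83.8 CPM in dermis, 28.1 CPM in lymph node) and Cst3 (316 and 144 CPM in dermis and lymph node) were called higher there, 2 of 4 genes against 26.0% of all genes, and 0 of 3 were called higher in epidermis over lymph node, against 18.6%. Cst7, an inhibitor of cathepsin C, was at 82.1, 84.9 and 84.4 CPM in epidermis, dermis and lymph node, and Cstb was not called either. Serpinb9, the inhibitor of granzyme B, had 3.17 CPM in epidermis, 2.81 CPM in dermis and 14.2 CPM in lymph node, under the 50 CPM limit. Of the 13 genes that build glycosaminoglycan chains on serglycin, B3gat3 alone reached 50 CPM, with 52.1 CPM in dermis and 17.4 CPM in lymph node, and was called higher. Among death ligands and cytokines, Tnf was called higher in epidermis (4.74-fold) and dermis (4.22-fold) over lymph node, while Lta (0.243) and Ltb (0.325) were called lower in dermis over lymph node. Fasl stayed at or below 3.24 CPM in all 3 libraries.

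Markers of CD8 T and NK cells were low. The summed CD8 T and NK list was at 54.0 CPM in epidermis, 25.1 CPM in dermis and 24.7 CPM in lymph node, led by Cd8b1, with 6, 5 and 7 of its 11 genes detected. Ncr1, Klra8, Klra4 and Klre1, natural killer genes, had 0 UMIs in all 3 libraries. Cells with a Cd8a UMI numbered 5, 3 and 16 in epidermis, dermis and lymph node, and held 2.58%, 0.0520% and 0% of the Gzmb UMIs of those libraries. Cells with a Cd8b1 UMI numbered 32, 67 and 614 in the same order, and 4, 1 and 4 cells had both. Of the mast cell and basophil list, 7 of 8 genes were at 0 in both skin libraries. Of the gamma-delta T list, only Sox13 and Blk, 2 of 8 genes, were among the genes measured. They had 0, 3 and 9 UMIs in epidermis, dermis and lymph node. The gamma-delta receptor genes of that list were not among the genes measured, so gamma-delta T cells could not be looked for with them. After thinning, the summed CD8 T and NK list was at 0 CPM in epidermis, 19.2 CPM in dermis and 24.4 CPM in lymph node in cells with a Gzmb UMI, against 15.02, 30.1 and 25.2 CPM in cells without. The first values rest on 0, 6 and 8 UMIs, and the intervals of the ratios reached up to 6.06, 1.57 and 1.92. In the 48 dermal cells with an Nkg7 UMI the list was at 83.3 CPM, against 23.9 CPM in the 780 without (3.48-fold, 1.18 to 8.57), on 6 and 28 UMIs. Leaving out all cells with a UMI of the list gave Nkg7 levels of 124, 75.9 and 51.7 CPM in epidermis, dermis and lymph node. With all kept cells they were 151, 81.0 and 53.3 CPM. Epidermis over lymph node was then 2.39-fold for Nkg7, against 2.84-fold, and still called. The part of such cells in the Nkg7 levels was not tested.

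Female and male cells were mixed in skin. In epidermis 111 cells had Xist and no Y-linked UMI and 101 the reverse, in dermis 723 and 55, and in lymph node 7086 and 0. Epidermal Gzmb was 232 CPM (201 to 267) in the Xist cells and 374 CPM (334 to 418) in the Y-linked cells. Epidermal Nkg7 ran the other way, at 210 and 92.4 CPM. The epidermal Gzmb levels rest on 195 and 312 UMIs. One epidermal cell alone held 128 Gzmb UMIs, and its class was not determined, so its part in this difference is not known. Dermal Gzmb was 416 and 490 CPM with overlapping intervals, and Ctsw was 20.6 CPM in both. With Xist cells alone, Gzmb in epidermis over lymph node was 4.91-fold. The 2314 lymph node cells with neither Xist nor a Y-linked UMI had 11.5 CPM of Gzmb, against 47.3 CPM in the Xist cells. Leaving them out thus raised the lymph node level, and the lower ratio cannot be read as a difference between sexes. The part of sex in the tissue differences was not tested.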

How the data were processed

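The deposited matrices hold whole-number UMI counts for each gene in each cell barcode, not normalized. Per the file headers, both skin libraries were made with Cell Ranger 4.0.0. Per the submitters' processing notes, Cell Ranger and mm10 were used. For lymph node no version is stated in the sources used here. All values reported were computed from these counts: UMIs were summed over kept cells, divided by the library total and given as CPM. Ratio intervals were exact binomial splits, CPM intervals exact Poisson and shares exact Clopper-Pearson, all at 95%, and all cover counting error only. No test was run between tissues, since each has 1 library. Total depth ran between 2205131 and 32906839 UMIs.

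Clusters were made within each library with scanpy 1.11.5 (1500 variable genes, 20 components, 15 neighbours, Leiden resolution 1). Likeness was Pearson's r of log2(CPM + 10) over clusters. The members and gene lists were chosen with earlier results of these data known. From each list up to 4 genes per comparison were named by the size of their ratio among those reaching 50 CPM, from the cells with a Gzmb UMI the 8 highest and 4 lowest genes at 100 CPM or more, and 5 like genes per member, leaving out mitochondrial, ribosomal protein, Gm, Rik, immune receptor segment and sex-linked genes in the last pair. Further list genes were named after their values were seen, among them Runx3, Runx1, Tbx21, Eomes, Serpinb9, Fasl, Ctsc in dermis and the scarce granzymes and receptors. Alternatives changed the cell filter, doublets, sex, weighting, depth, scaling (TMM from edgeR 4.0.16, R 4.3.3) and call rule. Doublets were not removed from the values reported. Scrublet marked 9.43% of cells in epidermis, 1.60% of those in dermis and 0.0213% of those in lymph node, so in lymph node it has not worked. Annotation was GENCODE vM21 (GRCm38). The ratio step was tested on simulated data: in each of the 3 comparisons 98% to 100% of the genes given a 3-fold or 4-fold change in either direction were called, and 0% of unchanged genes. The simulated counts were Poisson draws for genes at 50 CPM or more. They held no variation between cells, no change of composition and no kit difference, so they check the arithmetic of the step only.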

Additional observations from a re-analysis of the deposited data

Results flagged for a closer look

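The results below were picked out because they lie in barcodes that the comparisons leave out, those with over 10% mitochondrial UMIs, and exceed the 3 counts that a count of 0 allows. In the 63 such epidermal barcodes (median 1705 UMIs) there were 16 Gzmb, 19 Ctsw, 21 Nkg7 and 188 Srgn UMIs, or 142, 169, 187 and 1673 CPM. In the 202 dermal barcodes (median 1227 UMIs) there were 71 Gzmb, 7 Ctsw, 14 Nkg7 and 406 Srgn UMIs, or 238, 23.5, 46.9 and 1361 CPM. In the 19 lymph node barcodes (median 1636 UMIs) there were 10 Nkg7 and 46 Srgn UMIs, or 289 and 1327 CPM. Dermal Ctsw was thus low in these barcodes too, at 23.5 CPM (9.44 to 48.4), against 169 CPM (102 to 264) in the epidermal ones. With these barcodes included, no member changed its call in any of the 3 comparisons.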

How the results depend on the processing

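No paired analysis was possible because each tissue has 1 library and the results come from no test. The number of members called higher in epidermis over lymph node was 3 and became 1 (Gzmb) with a 3-fold limit. Of all genes, 18.6% and 8.93% were called higher under these limits. Srgn also left the call there with TMM, median-of-ratios and totals without mitochondrial and ribosomal protein genes. Under those scalings 8.73%, 10.6% and 13.8% of all genes were called higher. In epidermis over dermis, 1 member was called higher (Ctsw) and 2 (Ctsw and Nkg7) in cells with Xist alone, in cells with Y-linked UMIs alone, without barcodes found in both skin libraries (an alternative chosen after seeing the data), with totals without mitochondrial and ribosomal protein genes, and with a 1.5-fold limit. Of all genes, 2.71% were called higher in that comparison, and 3.13%, 6.77%, 2.23%, 4.13% and 8.94% under these alternatives in the same order. In epidermis over dermis 0 members were called lower, and 1 in cells with a Foxp3 UMI (Gzmb) and with a 1.5-fold limit (Srgn). Of all genes, 4.54% were called lower, and 5.93% and 11.5% under these alternatives. Without thinning, the Gzmb shares of epidermis, dermis and lymph node were 25.6%, 38.3% and 3.87%, and thinning to 1000 UMIs gave 1.81% in lymph node. At Leiden resolution 0.5 the highest Gzmb cluster had 483 CPM in epidermis and 600.3 CPM in dermis. The causes of these changes were not tested. No member called in the report changed direction under any alternative run. Median-of-ratios scaling turned the share of calls that were higher to 51.2% in epidermis over lymph node, 51.5% in dermis over lymph node and 25.5% in epidermis over dermis, and totals without mitochondrial and ribosomal protein genes to 69.2%, 46.0% and 56.7%, against 84.4%, 73.1% and 37.4% with library totals. Epidermal depth limits the smaller values: 14 Prf1 UMIs leave a ratio to lymph node between 2.31 and 8.41.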
